A study of Mus musculus with 12 samples.

Results

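The epidermal growth factor receptor family was followed through 10 genes, taken by symbol from the deposited gene table: the receptors Egfr, Erbb2, Erbb3 and Erbb4 and the ligands Hbegf, Areg, Ereg, Btc, Tgfa and Nrg1. They are 10 of the 52550 genes in the table, and 9 of them had enough counts to be tested among 16823 genes. RNA was sequenced from 2 mouse lines derived from mammary carcinoma, D2A1 and D2.OR, each grown for a week either on plastic (2D) or on top of a layer of growth-factor-reduced Matrigel (3D), a basement-membrane gel. Each of the 4 groups (D2A1 2D, D2A1 3D, D2.OR 2D and D2.OR 3D) had 3 libraries, 1 in each of 3 batches, and each batch was read on a sequencing lane of its own. Each line was established from a tumor of its own, and in this model D2A1 proliferates and D2.OR is dormant when grown in 3D. The study's methods give the 3D cultures DMEM/F-12 with horse serum, hydrocortisone, cholera toxin, insulin and Matrigel, and their listed supplements do not name EGF. For the sequenced cells they point to the general culture text, which has standard 2D cultures in high-glucose DMEM, while the text on the dormancy assays has 2D cultures in the 3D medium. Wells were pooled for RNA, and 3D cells were freed from the gel on ice before lysis, so growth in 3D, the recovery step and a possible difference of medium cannot be told apart. Each line is 1 established cell line, so a difference between lines is a difference between these 2 lines. No genotype or drug treatment is given for any group.

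ErbB receptors are membrane tyrosine kinases that work in pairs. EGFR binds EGF, TGF-alpha, amphiregulin, epiregulin, betacellulin and HB-EGF; ERBB3 and ERBB4 bind the neuregulins; ERBB2 has no known ligand of its own and is the favored partner of the others, while ERBB3 has little kinase activity and signals through its partner. The ligands are made as membrane proteins and are released by proteases of the ADAM family. In the mammary gland these genes are known for ductal growth and alveolar development, and ERBB2 for its amplification in a class of human breast cancers.

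The promoter letters of 6 of the 10 genes were at hand in RefSeq (GRCm38.p6). The windows of Egfr, Erbb2 and Areg are printed as the 250 bases before each gene's RefSeq start, which for Erbb2 lies 14 bases inside the gene as GENCODE annotates it. The windows of Tgfa, Btc and Erbb4 are not printed, and none was at hand for Ereg, Hbegf, Nrg1 and Erbb3. The printed ones are shown since Egfr and Erbb2 are among members that differ between lines and Areg among those that differ between batches. They were searched on both strands for CRE (TGACGTCA, bound by CREB-type factors), AP-1 (TGANTCA), the GC box (GGGCGG) and the TATA box (TATAAA), with matches in capitals.
Egfr (chr11:16751953-16752202, plus strand): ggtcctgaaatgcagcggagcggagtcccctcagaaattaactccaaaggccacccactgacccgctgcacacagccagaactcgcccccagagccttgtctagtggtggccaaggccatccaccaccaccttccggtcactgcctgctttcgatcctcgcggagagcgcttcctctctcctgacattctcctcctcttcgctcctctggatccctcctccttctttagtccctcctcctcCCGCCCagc
Erbb2 (chr11:98412234-98412483, plus strand): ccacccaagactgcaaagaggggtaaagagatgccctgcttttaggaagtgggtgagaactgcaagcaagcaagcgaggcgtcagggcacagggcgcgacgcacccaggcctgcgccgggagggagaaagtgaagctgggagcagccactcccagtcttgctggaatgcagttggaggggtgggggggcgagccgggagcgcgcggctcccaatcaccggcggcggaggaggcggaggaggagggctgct
Areg (chr5:91139349-91139598, plus strand): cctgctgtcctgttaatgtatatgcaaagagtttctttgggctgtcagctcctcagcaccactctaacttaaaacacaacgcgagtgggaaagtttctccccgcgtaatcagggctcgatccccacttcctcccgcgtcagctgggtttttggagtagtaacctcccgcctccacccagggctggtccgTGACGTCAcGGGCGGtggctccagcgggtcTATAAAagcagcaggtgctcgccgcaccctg
The Egfr window held 1 GC box, 9 bases before the start, and the Erbb2 window held none of the 4 motifs. The Areg window held a CRE 61 bases before the start, a GC box at 52 bases and a TATA box at 31 bases. Of 32851 promoter windows of this length, 1.55% held the CRE, 6.75% AP-1, 32.7% the GC box and 12.4% the TATA box. A match of letters describes the window and does not show that a factor binds there.

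The libraries held 47589611 to 73325069 RSEM expected counts. Tests were made with the edgeR quasi-likelihood test on counts with batch in the model, p-values were adjusted over all 16823 genes by Benjamini-Hochberg, and a gene was called at an adjusted p under 0.05. Levels are given as TPM (a transcript's share of all transcripts, scaled to a fixed total and corrected for transcript length), and fold changes come from the counts. The labels call the cells a breast cancer cell line. Of the luminal markers, Krt8 lay at 227 to 1022 TPM in D2.OR and at 0.78 to 2.31 TPM in D2A1, and the epithelial adhesion genes Cdh1 and Epcam were at most 0.28 and 0.17 TPM in D2A1. The luminal keratin Krt18 was high in both lines, at 92.7 to 294 TPM in D2A1, where it was nearly the whole luminal sum, and 125 to 666 TPM in D2.OR, and it was called between the lines in 2D (log2 1.25 ± 0.38, edgeR adjusted p = 0.022) and not in 3D (0.74 ± 0.39, 0.133). The basal keratin Krt5 was at most 0.03 TPM in every library, and the mesenchymal gene Vim lay at 733 TPM or more in all 12. Other markers of these lists differed widely: the collagen gene Col3a1 lay at 0.76 to 25.5 TPM in D2A1 and 468 to 2217 TPM in D2.OR (log2 6.80 ± 0.51 in 2D and 9.03 ± 0.57 in 3D, edgeR adjusted p = 1.18e-05 and 3.75e-06). Markers were named as defining genes or after their values were seen. Called higher in D2.OR were 6 of 6 tested luminal markers in 2D and 5 of 6 in 3D, 2 and 3 of 3 basal markers, and 5 and 6 of 6 fibroblast and mesenchymal markers. The 7 luminal markers summed to 94.4 to 299 TPM in D2A1 and to 427 to 1730 TPM in D2.OR, the 4 basal markers to 0.61 to 2.95 and 9.44 to 45.1 TPM, and the 6 fibroblast and mesenchymal markers to 815 to 3170 and 3420 to 7290 TPM. The 4 leukocyte markers summed to 5.73 to 32.1 TPM in D2A1 and 2.26 to 6.9 TPM in D2.OR, nearly all of it Cd68, with the defining marker Ptprc at most 0.05 TPM, and the 3 endothelial markers to 0.17 to 0.42 and 0.09 to 0.19 TPM. The luminal, basal and mesenchymal sums did not overlap between the lines. The leukocyte and endothelial sums overlapped in 3D but not in 2D. In 2D they were 6.85 to 32.1 and 0.18 to 0.42 TPM in D2A1, and 2.26 to 5.51 and 0.13 to 0.16 TPM in D2.OR. Cd68, the only leukocyte marker tested, was called lower in D2.OR in 2D (-2.41 ± 0.62, edgeR adjusted p = 0.0103) and not in 3D (-0.55 ± 0.57, 0.439). The part of these markers in the results was not tested. In RNA from whole cultures, fewer cells that express a gene and less RNA per cell cannot be told apart.

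The first question was how the lines differ. D2.OR had far more receptor transcript than D2A1 in both cultures, and it had more Hbegf, Nrg1 and Areg but less Ereg and Tgfa. In 2D, 8 of the 9 tested members were called, 6 higher and 2 lower in D2.OR, beside 49.8% of all tested genes called (25.4% higher and 24.4% lower). In 3D all 9 tested members were called, 7 higher and 2 lower, beside 53.8% of all tested genes (27.7% higher and 26.1% lower). About every second gene was called between the lines, so being called does not set the members apart. The sizes of the differences were as follows: the median absolute log2 fold change of the members was 3.80 in 2D and 2.65 in 3D, against 0.54 and 0.61 over all tested genes, and 9.28% and 9.0% of all tested genes lay beyond an absolute value of 3. In CPM (counts scaled to library size) the 3 libraries of each line did not overlap for 7 of the 9 members in 2D and 8 in 3D, while 53.2% and 60.1% of all tested genes were without overlap.

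**Figure D1:**
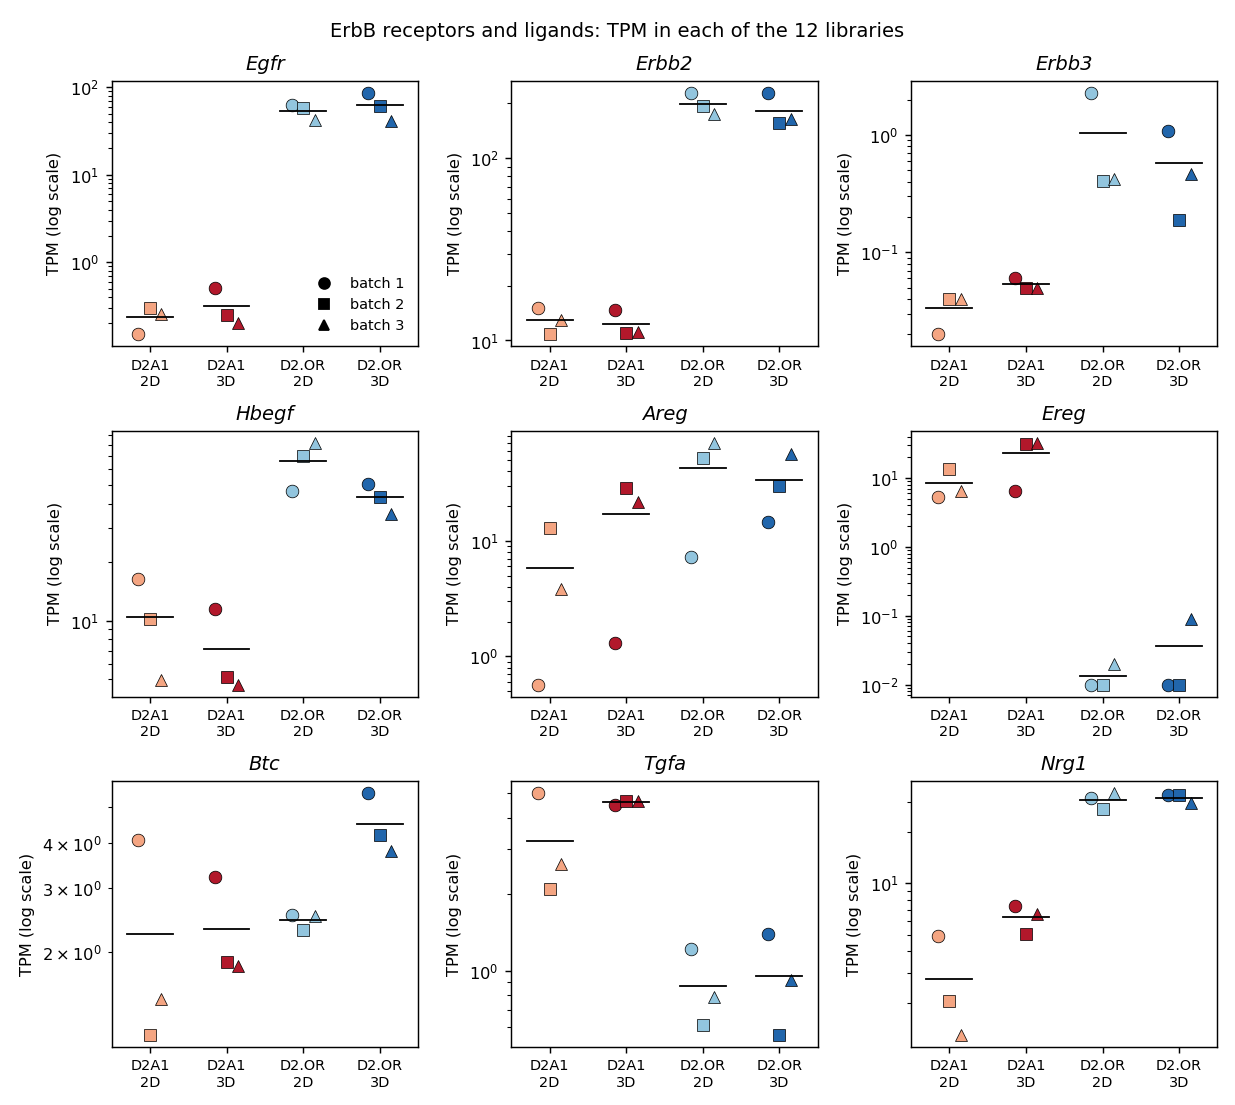
TPM of 9 members (vertical, log scale, a separate range for each gene) in the 4 groups (horizontal), with 1 symbol per library, shaped by batch, and a line at the mean of 3. Egfr, Erbb2, Erbb3, Hbegf and Nrg1 lie higher in all 6 D2.OR libraries than in any D2A1 library, Ereg lies higher in all 6 D2A1 libraries, and Areg overlaps between the lines; Erbb4 is not drawn.

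Egfr (chr11:16752203-16918158, plus strand), the receptor of most of these ligands, was nearly silent in D2A1. It lay at 0.15, 0.30 and 0.26 TPM in batches 1, 2 and 3 of D2A1 2D and at 0.51, 0.25 and 0.20 TPM in D2A1 3D. In D2.OR it lay at 62.4, 57.6 and 42.6 TPM in 2D and at 86.0, 60.7 and 41.0 TPM in 3D. Every D2.OR library was therefore far above every D2A1 library. The D2A1 values rest on 25 to 70 counts a library and the D2.OR values on 8492 to 17728. The log2 fold change was 8.68 ± 0.27 (SE, n = 3 a group) in 2D, 411-fold, and 8.5 ± 0.27 in 3D, 361-fold (edgeR quasi-likelihood, adjusted p = 7.42e-08 and 8.45e-08). The batches gave log2 differences of 8.80, 8.71 and 8.28 in 2D and 8.16, 8.90 and 8.40 in 3D. The few D2A1 reads were assigned differently among the 5 annotated transcripts (446 to 10208 bases): the effective length that RSEM used for Egfr was 2526 to 3362 bases in 5 of the 6 D2A1 libraries and 5842 in the remaining one (2D, batch 1), against 5459 to 6323 in D2.OR. Since TPM divides by that length, the TPM values set the lines less far apart than the counts do.

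Erbb2 (chr11:98412470-98437716, plus strand), the co-receptor, was the most abundant receptor transcript in every library of both lines. It lay at 15.2, 10.8 and 13.0 TPM in D2A1 2D and at 14.7, 10.9 and 11.2 TPM in D2A1 3D. In D2.OR it lay at 228, 193 and 176 TPM in 2D and at 227, 157 and 164 TPM in 3D. The groups of a line were narrow and the lines were far apart. The log2 fold change was 4.07 ± 0.11 in 2D, 16.8-fold, and 3.82 ± 0.11 in 3D, 14.1-fold (edgeR quasi-likelihood, adjusted p = 3.47e-08 and 4.78e-08). Within batches it was 4.0, 4.32 and 3.89 in 2D and 3.88, 3.74 and 3.84 in 3D. Erbb2 made up 96.3% to 98.9% of the summed receptor TPM in D2A1 and 72.1% to 80.3% in D2.OR, where Egfr was most of the rest. The receptor sum was 11.1 to 15.3 TPM in D2A1 and 206 to 314 TPM in D2.OR.

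Erbb3 (chr10:128567523-128589652, minus strand), the neuregulin receptor with little kinase activity, was low everywhere. Its D2A1 levels were 0.02, 0.04 and 0.04 TPM in 2D and 0.06, 0.05 and 0.05 TPM in 3D, from 3 to 14 counts a library. Its D2.OR levels were 2.28, 0.41 and 0.42 TPM in 2D and 1.09, 0.19 and 0.47 TPM in 3D, so that batch 1 stood above the others in both cultures. D2.OR was higher by 4.63 ± 0.70 in 2D and 3.20 ± 0.64 in 3D on the log2 scale (edgeR quasi-likelihood, adjusted p = 6.30e-04 and 2.67e-03), with no overlap. The within-batch difference was 6.52 in batch 1 of 2D and 3.26 and 3.19 in the others. Erbb4 (chr1:68032186-69108059, minus strand), the other neuregulin receptor, gave 1 count in 1 of the 12 libraries and was not tested. A count of 0 allows up to 3 counts, 0.0425 to 0.0607 CPM depending on the library. The order of receptor levels was Erbb2, Egfr, Erbb3 and Erbb4 in both lines, with no overlap of TPM between neighbours in a line, but the 3 counts of Erbb3 in D2A1 2D of batch 1 are no more than a count of 0 allows for Erbb4.

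**Figure D2:**
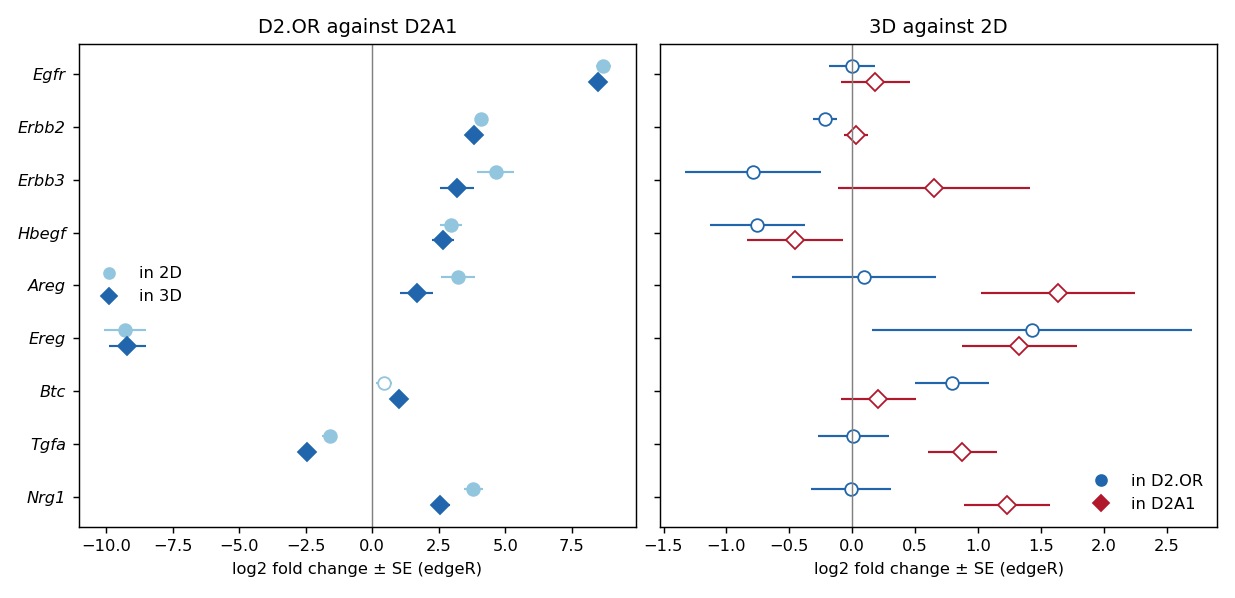
Fitted log2 fold changes with SE (horizontal) of 9 members (vertical), D2.OR against D2A1 on the left and 3D against 2D on the right, on separate axes. Filled symbols passed an adjusted p of 0.05 by edgeR and open symbols did not: 8 of 9 members are filled for the lines in 2D, all 9 in 3D, and none for culture in either line.

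Of the EGFR ligands, Hbegf (heparin-binding EGF, which also binds ERBB4) was higher in D2.OR. It lay at 16.3, 10.2 and 4.95 TPM in D2A1 2D and at 11.5, 5.13 and 4.69 TPM in D2A1 3D. It lay at 46.6, 69.8 and 81.7 TPM in D2.OR 2D and at 50.6, 43.2 and 35.4 TPM in D2.OR 3D, all above the highest D2A1 library. The log2 fold change was 2.95 ± 0.41 in 2D and 2.65 ± 0.40 in 3D (edgeR quasi-likelihood, adjusted p = 4.03e-04 and 5.70e-04). The size varied among batches, from 1.64 in batch 1 to 2.91 and 4.16 in batches 2 and 3 of 2D.

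Ereg (epiregulin, chr5:91074622-91093646, plus strand) was the member with the largest difference in the other direction. D2A1 had 5.36, 13.4 and 6.57 TPM in 2D and 6.47, 31.3 and 32.0 TPM in 3D. D2.OR had 0.01, 0.01 and 0.02 TPM in 2D and 0.01, 0.01 and 0.09 TPM in 3D, from 1 to 2 counts a library apart from 15 counts in the 3D library of batch 3. Over the 3 libraries of a group, 3352 counts in D2A1 2D stood against 5 in D2.OR 2D, a depth-corrected ratio of 681 (exact 95% interval 291 to 2100), and 11728 against 17 in 3D, a ratio of 635 (396 to 1090). Of these 17 counts 15 came from D2.OR 3D replicate 3, and without that library the ratio was 3570 (987 to 29400) and the fitted log2 fold change -11.44 in place of -9.20. These intervals cover counting error only. The edgeR quasi-likelihood test gave an adjusted p of 2.16e-05 in 2D and 1.11e-05 in 3D.

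Areg (amphiregulin, chr5:91139599-91148432, plus strand), whose gene begins 46.0 kb past the end of Ereg, went the other way between the lines and varied most among batches. It lay at 0.57, 12.9 and 3.86 TPM in D2A1 2D and at 1.31, 28.4 and 21.6 TPM in D2A1 3D. It lay at 7.18, 51.7 and 69.9 TPM in D2.OR 2D and at 14.6, 30.0 and 56.3 TPM in D2.OR 3D. The lines overlapped in both cultures because batch 1 was low throughout. With batch in the model D2.OR was higher by 3.21 ± 0.64 in 2D and 1.67 ± 0.61 in 3D (edgeR quasi-likelihood, adjusted p = 3.03e-03 and 0.043). The within-batch log2 differences were 3.67, 2.14 and 4.29 in 2D and 3.41, 0.04 and 1.35 in 3D. The 3D call was near the threshold: without batch in the model its log2 value was 0.93 (adjusted p = 0.531), without batch 1 it was 0.78 (0.229), and it was lost in 14 of the 24 alternatives, among them leaving out D2.OR 3D replicate 1 (0.95, adjusted p = 0.162) and D2A1 3D replicate 1 (1.18, adjusted p = 0.15). Leaving out D2A1 2D replicate 1, D2A1 3D replicate 2 or 3, any D2.OR 2D library or D2.OR 3D replicate 3 also ended it, at adjusted p-values of 0.0502 to 0.094. The 2D call was lost without batch in the model (adjusted p = 0.0736) and without batch 3 (0.0576). The ratio of Areg to Ereg TPM was 0.106 to 0.966 in the 6 D2A1 libraries, while the 6 D2.OR libraries held 331 to 2311 counts of Areg and 1 to 15 of Ereg.

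Tgfa (TGF-alpha, chr6:86195223-86275719, plus strand) was higher in D2A1, at 4.99, 2.10 and 2.63 TPM in 2D and 4.50, 4.65 and 4.65 TPM in 3D. D2.OR had 1.22, 0.61 and 0.79 TPM in 2D and 1.39, 0.56 and 0.92 TPM in 3D, below every D2A1 library. D2.OR was lower by 1.59 ± 0.28 in 2D and 2.46 ± 0.29 in 3D, as log2 changes of -1.59 and -2.46 (edgeR quasi-likelihood, adjusted p = 1.53e-03 and 1.38e-04). Btc (betacellulin, chr5:91357261-91402994, minus strand), which binds EGFR and ERBB4, differed least. Its D2A1 levels were 4.07, 1.19 and 1.49 TPM in 2D and 3.22, 1.88 and 1.84 TPM in 3D, and its D2.OR levels were 2.54, 2.30 and 2.52 TPM in 2D and 5.46, 4.21 and 3.80 TPM in 3D. The lines overlapped in 2D (log2 0.43 ± 0.30, edgeR adjusted p = 0.264) and not in 3D, where D2.OR was higher by 1.01 ± 0.29 (0.0172). Btc was called in 2D without D2A1 2D replicate 1 (log2 0.88, adjusted p = 0.00884). Its 3D call was lost in 6 of 24 alternatives, among them 3 fits that each leave out 1 library: D2A1 3D replicate 3 (0.95, adjusted p = 0.0652), D2.OR 3D replicate 2 (0.87, 0.0717) or D2.OR 3D replicate 3 (0.99, 0.0511).

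Nrg1 (neuregulin 1, chr8:31814551-32884029, minus strand), the ligand of ERBB3 and ERBB4, was higher in D2.OR. D2A1 had 4.95, 2.05 and 1.3 TPM in 2D and 7.33, 5.04 and 6.66 TPM in 3D. D2.OR had 31.7, 27.4 and 33.7 TPM in 2D and 32.8, 32.9 and 29.6 TPM in 3D, a narrow range well above D2A1. The log2 fold change was 3.80 ± 0.36 in 2D, 13.9-fold, and 2.56 ± 0.34 in 3D, 5.90-fold (edgeR quasi-likelihood, adjusted p = 4.71e-05 and 2.76e-04). Nrg1 has 18 annotated transcripts of 285 to 5415 bases, and its effective length was 2195 to 2849 bases in D2A1 and 2712 to 2982 in D2.OR. Of the ligand genes outside the 10 (Egf, Epgn, Nrg2, Nrg3 and Nrg4), 4 were tested, with 1 higher, 2 lower and 1 not called in 2D and 1, 1 and 2 in 3D. Nrg2 had no count in any D2.OR library and was at least 27.6-fold lower there in 2D and at least 20.4-fold lower in 3D, against a floor of 3 counts a library. Epgn (epigen) was higher in D2.OR (2.22 ± 0.46 and 1.41 ± 0.46, edgeR adjusted p = 3.56e-03 and 0.0289), and Nrg4 was lower in 2D (-1.03 ± 0.31, 0.0204). Egf itself did not pass (-0.46 ± 0.23, 0.127, and -0.01 ± 0.22, 0.972), and Nrg3 was too low to test.

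**Figure D3:**
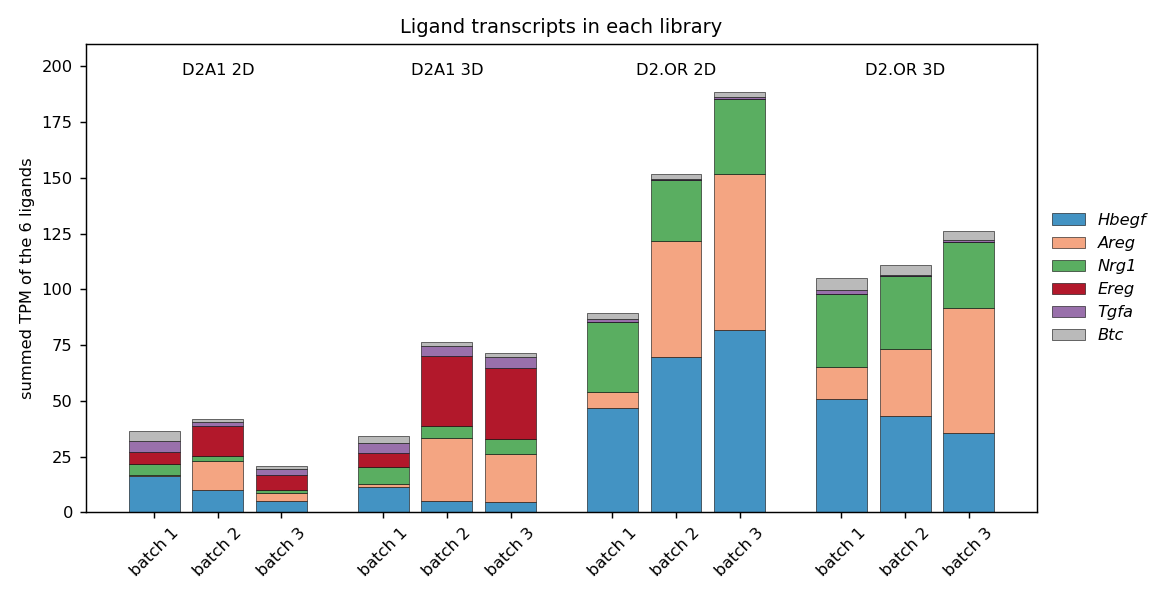
TPM of the 6 ligands stacked in each of the 12 libraries (vertical, linear from 0; horizontal, libraries by group and batch). The sums run from 20.8 to 76.4 TPM in D2A1 and from 89.3 to 189 TPM in D2.OR, and the Ereg segment is visible only in D2A1.

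The mix of ligand transcripts differed accordingly. In D2A1 the 6 ligands summed to 20.8 to 76.4 TPM and in D2.OR to 89.3 to 189 TPM. Ereg was 14.8% to 44.8% of that sum in D2A1 and at most 0.0714% in D2.OR. Hbegf was 28.1% to 52.2% and Nrg1 17.9% to 35.6% in D2.OR. In D2A1 3D of batches 2 and 3, Ereg and Areg together were the larger share, with Ereg at 41.0% and 44.8% and Areg at 37.1% and 30.2%, whereas in batch 1 Hbegf led with 33.6%. In D2.OR 2D the order Hbegf, Areg, Nrg1 held in batches 2 and 3, and in batch 1 Nrg1 (35.6%) stood above Areg (8.04%). Levels of Hbegf and Areg overlapped among D2.OR libraries, so their order is not fixed beyond the spread.

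The second question was whether growth in 3D moved these genes. No member was called between 3D and 2D in D2.OR, in D2A1, or in the interaction, which tests whether the culture difference differs between the lines. The share of all tested genes called by edgeR was 1.62%, 3.48% and 0.0238%. Of the cell type markers, Cdh1 was lower in 3D in D2.OR (-1.36 ± 0.21, edgeR adjusted p = 0.0215), where Krt8 and Krt18 had -1.31 ± 0.38 and -1.37 ± 0.38 (0.125 and 0.115), and Col3a1 was lower in 3D in D2A1 (-3.13 ± 0.44, 0.0207), where Pdgfrb had -2.86 ± 0.67 (0.0513). Some markers had higher fitted values in 3D in D2A1, uncalled: Vim (0.52 ± 0.23, edgeR adjusted p = 0.159), Pdgfra (0.06 ± 0.33, 0.92) and Epcam (2.29 ± 0.55, 0.0526). Epcam rested on 1 to 13 counts a library there. In D2.OR the luminal marker Gata3 had 0.30 ± 0.42 (0.75). The calls were 1 of 6 tested luminal markers in D2.OR and 1 of 6 fibroblast and mesenchymal markers in D2A1. No other marker was called, and the part of the markers in the culture results was not tested. At an unadjusted p under 0.05 edgeR gave 2, 4 and 1 of the 9 members, beside 17.6%, 31.4% and 17.8% of all tested genes. DESeq2 called 0, 3 and 0 members and limma on log2(TPM + 1) 0, 1 and 0. The shares of all tested genes above are those of edgeR. The shares called by DESeq2 and limma are not given here, so their counts do not set the members apart.

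In D2A1, 4 ligands had the smallest p-values, all with higher fitted values in 3D. Nrg1 had a log2 fold change of 1.23 ± 0.34 (edgeR adjusted p = 0.0626), with within-batch differences of 0.54, 1.06 and 2.39. Tgfa had 0.88 ± 0.27 (0.0761) and was higher in 2 of 3 batches. Ereg had 1.33 ± 0.45 (0.091) and Areg 1.63 ± 0.61 (0.11), both higher in 3 of 3 batches, with overlapping groups. These results turn on batch 1: without it edgeR called all 4, at 1.70 for Nrg1, 1.28 for Tgfa, 1.87 for Ereg and 1.74 for Areg (adjusted p = 0.00365, 0.00236, 0.00755 and 0.0409). Without D2A1 2D replicate 1 alone, Nrg1 (1.77, adjusted p = 0.00235), Ereg (1.82, 0.0171), Tgfa (1.07, 0.0276) and Btc (0.69, 0.0417) were called, and without D2A1 3D replicate 1 alone Tgfa (1.23, 0.00681) and Ereg (1.80, 0.0412). Hbegf did not follow, at -0.46 ± 0.38 (edgeR adjusted p = 0.439). The share of all tested genes called in the fits that leave out libraries is not given here. The calls in those fits therefore do not set the ligands apart.

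In D2.OR the smallest p belonged to Btc, with 0.79 ± 0.29 (edgeR adjusted p = 0.208), higher in 3 of 3 batches and without overlap of the groups. Hbegf had -0.76 ± 0.38 (adjusted p = 0.335). In CPM its difference was -0.01, -0.72 and -1.21 in the 3 batches and the groups did not overlap, whereas in TPM batch 1 was higher in 3D and the groups overlapped. Groups without overlap in CPM were 2 of 9 members in D2.OR and 1 of 9 in D2A1, beside 22.7% and 26.0% of all tested genes. Of the receptors, Egfr had 0.00 ± 0.18, Erbb2 -0.22 ± 0.10 and Erbb3 -0.79 ± 0.54 (edgeR adjusted p = 0.995, 0.28 and 0.484). For the interaction, Nrg1 had -1.24 ± 0.46 (edgeR adjusted p = 0.222), Tgfa -0.87 ± 0.39 (0.287) and Areg -1.54 ± 0.84 (0.367). Without batch 1 Nrg1 (-1.71, 0.0226) and Tgfa (-1.3, 0.0217) were called. Leaving out D2A1 2D replicate 1 alone called Nrg1 (-1.78, edgeR adjusted p = 0.0136), and leaving out D2A1 3D replicate 1 alone called Tgfa (-1.22, 0.0441). For these fits too, the share of all tested genes called is not given.

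The batches themselves were then compared in the same model, a test added after the values had been seen. Areg was higher in batch 2 than in batch 1 by 3.17 ± 0.57, 8.98-fold, and in batch 3 by 2.87 ± 0.55, 7.32-fold (edgeR quasi-likelihood, adjusted p = 0.0159 and 0.0184). Of all tested genes 6.78% and 8.08% were called in these comparisons. Erbb2 was lower in batches 2 and 3, with log2 values of -0.38 ± 0.08 and -0.34 ± 0.08 (adjusted p = 0.0309 and 0.0414), and no other member was called. Ereg had 1.60 ± 0.51 and 1.56 ± 0.54 (0.0956 and 0.112). The chemokine genes Cxcl3 and Cxcl5, which lie on the same stretch of chromosome 5, were picked for naming here after their values were seen. In batch 2 they had 3.21 ± 0.46 and 2.69 ± 0.59 (edgeR adjusted p = 7.72e-03 and 0.0301). In batch 3 they had 3.13 ± 0.45 and 2.54 ± 0.57 (7.66e-03 and 0.0315). Apart from Areg, no other gene listed on this stretch was called in either comparison. In batches 2 and 3, Cxcl1 had 1.58 and 1.51, Cxcl2 1.85 and 1.69 and Mthfd2l 0.25 and 0.23. Epgn had -0.26 and 0.20, Btc -0.73 and -0.71 and Parm1 -0.14 and 0.28. Batch and sequencing lane cannot be told apart, and the labels do not say which step of the work the batches refer to.

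**Figure D4:**
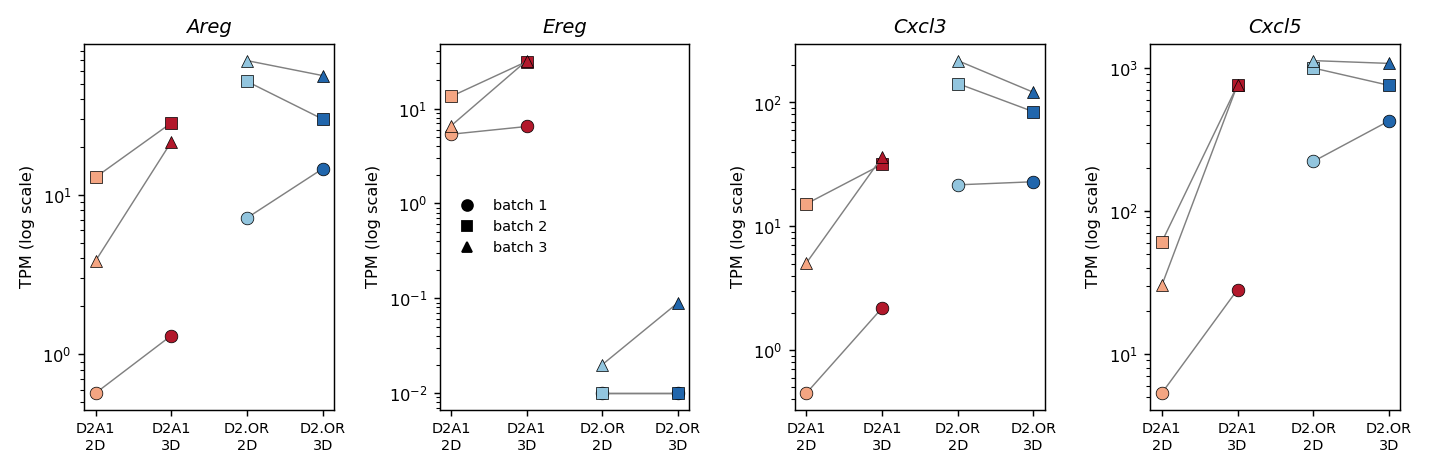
TPM (vertical, log scale) of Areg, Ereg, Cxcl3 and Cxcl5 in the 4 groups (horizontal), with 1 symbol per library, shaped by batch, and lines joining 2D and 3D of the same line and batch. Batch 1 (circles) is the lowest library in all 4 groups for Areg, Cxcl3 and Cxcl5, and in D2A1 for Ereg. The other genes listed on this stretch are not drawn.

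Several members share chromosomal neighbourhoods. On chromosome 5 the order is Epgn, Ereg, Areg and Btc, with Epgn ending 39.4 kb before Ereg and Btc 209 kb past Areg. Of the 10 genes listed there, which include these 4 ligands, 6 were higher, 2 lower and 2 not called in 2D, and 5, 1 and 4 in 3D, with median log2 fold changes of 2.22 and 1.16 against a median of 0.00 over all tested genes. Ereg was lower in D2.OR while its neighbours on both sides, Epgn and Areg, were higher. Among the others, Cxcl3 (a neutrophil chemokine) was higher in D2.OR by 4.54 ± 0.55 in 2D and 2.12 ± 0.49 in 3D, and Mthfd2l (a mitochondrial folate enzyme) by 1.85 ± 0.24 and 1.80 ± 0.24 (edgeR adjusted p = 1.81e-04, 5.39e-03, 3.00e-04 and 3.09e-04). Parm1 was lower by 3.71 ± 0.38 in 2D, a log2 change of -3.71 (6.97e-05), and had -0.35 ± 0.34 in 3D (0.407).

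Beside Erbb2, Grb7, the adaptor that binds ErbB receptors and begins 8.68 kb past the end of Erbb2, was higher in D2.OR by 5.22 ± 0.47 in 2D and 5.15 ± 0.46 in 3D (edgeR adjusted p = 3.40e-05 and 2.67e-05). It was at most 0.09 TPM in D2A1 and 1.5 to 2.36 TPM in D2.OR, far below Erbb2. The D2A1 libraries held 1 to 7 counts each, so the size is uncertain: summed over 3 libraries a group, 325 counts in D2.OR stood against 8 in D2A1 in 2D, a depth-corrected ratio of 40.0 (exact 95% interval 20.1 to 93.5, counting error only), and 364 against 11 in 3D, a ratio of 36.0 (19.9 to 72.7). Pgap3, 12 kb before Erbb2, was higher by 0.61 ± 0.13 and 0.52 ± 0.13 (5.07e-03 and 9.36e-03). Mien1, between Erbb2 and Grb7, was lower (-0.63 ± 0.14 and -0.83 ± 0.14, adjusted p = 4.62e-03 and 8.68e-04); it lies on the opposite strand and its end overlaps that of Erbb2, and whether the counting used strand is not given in the sources used here. Of the 10 neighbours listed, 6 were tested, with 2 higher, 1 lower and 3 not called in 2D and 3, 1 and 2 in 3D. Of the genes beside Erbb2, Grb7 differed at least as much in its fitted value, Pgap3 far less, and Mien1 in the other direction. The other tested neighbours are named after their values were seen. Ppp1r1b lay at 0.02 to 0.85 TPM in D2A1 and 0.26 to 3.94 TPM in D2.OR. It was called higher in 3D (2.80 ± 0.80, edgeR adjusted p = 0.0157) and not in 2D (2.21 ± 0.89, 0.0652). Stard3 (0.18 in 2D and -0.003 in 3D) and Cdk12 (0.17 and -0.04) were not called.

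**Figure D5:**
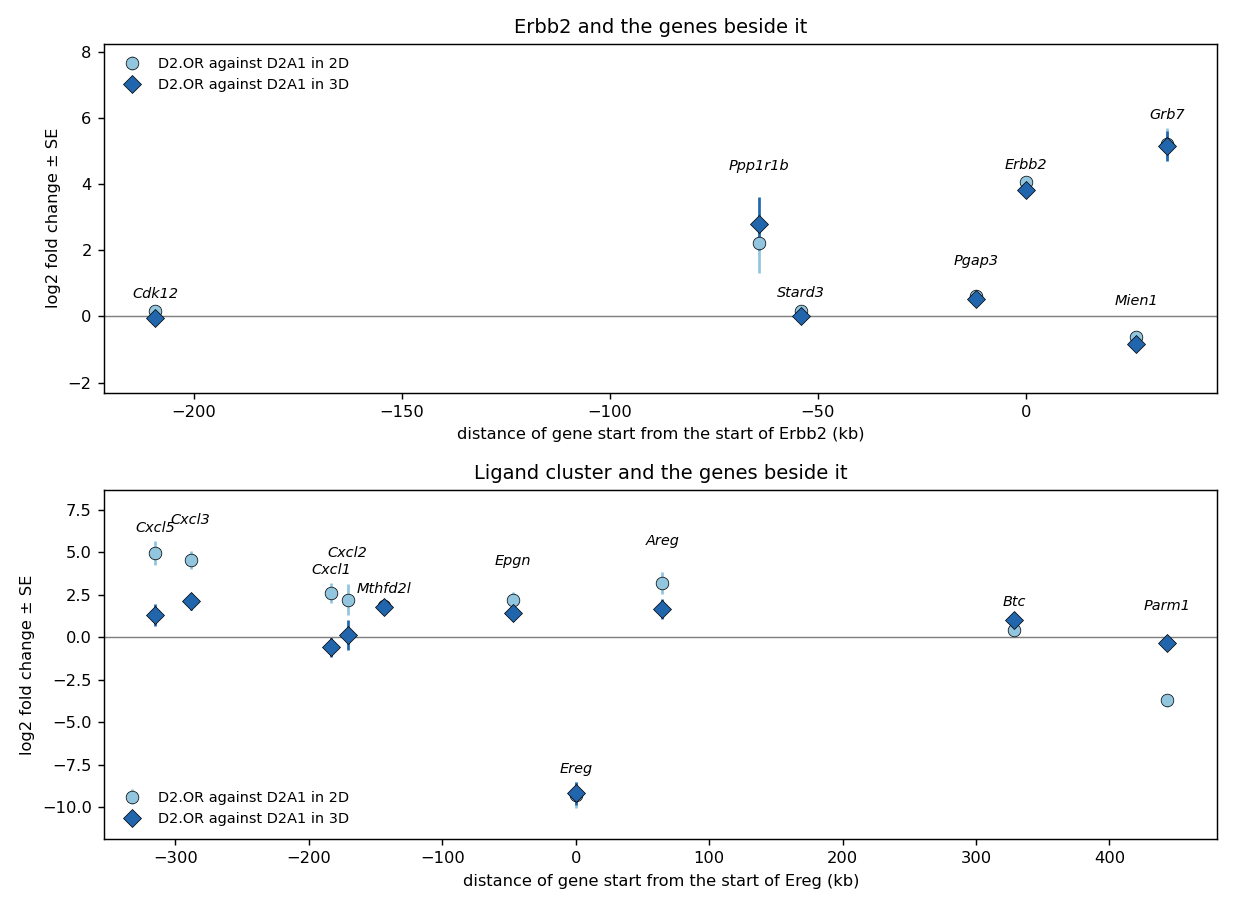
Log2 fold change with SE of D2.OR against D2A1 (vertical) by distance in kb from the start of Erbb2 (top) or of Ereg (bottom), for the tested genes of each neighbourhood, in 2D (circles) and 3D (diamonds). Erbb2 (4.07 and 3.82) and Grb7 (5.22 and 5.15) stand above Pgap3 and Mien1 beside them, and Ereg (-9.30 and -9.20) stands below all its neighbours.

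The genes that act around the receptors moved in both directions between the lines. Of 10 genes that release the ligands or control that release, 5 were higher, 2 lower and 3 not called in 2D, and 7, 2 and 1 in 3D, with median log2 fold changes of 0.34 and 0.85. Adam8 was higher in D2.OR by 4.05 ± 0.27 and 2.42 ± 0.25 (edgeR adjusted p = 5.91e-06 and 6.94e-05), and Rhbdl2, a rhomboid protease, by 2.91 ± 0.16 and 1.74 ± 0.16 (1.74e-06 and 2.77e-05). Adam12 was lower (-5.24 ± 0.85 and -7.47 ± 0.92, adjusted p = 9.31e-04 and 1.87e-04), as was Adam15 (-1.38 ± 0.12 and -0.76 ± 0.12, 2.97e-05 and 7.53e-04). Adam17, the main sheddase of several of these ligands, differed little (0.31 ± 0.12, 0.0497, and 0.03 ± 0.12, 0.829).

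Of 13 genes listed as restraining the receptors or acting on their turnover (the restraining genes), 6 were higher, 2 lower and 5 not called in 2D. In 3D these counts were 6, 1 and 6. Rnf41, a ubiquitin ligase that acts on ERBB3, was higher in D2.OR by 0.51 ± 0.09 and 0.67 ± 0.09 (edgeR adjusted p = 1.71e-03 and 3.19e-04). Sh3kbp1, an adaptor in receptor endocytosis, was higher by 0.89 ± 0.12 in 2D (2.59e-04) and had 0.15 ± 0.11 in 3D (0.281). Socs4 was higher by 0.42 ± 0.09 in both cultures (edgeR adjusted p = 4.35e-03 and 4.11e-03), and Lrig3 had 0.26 ± 0.23 in 2D (0.38) and was higher by 0.88 ± 0.23 in 3D (0.0105). Cblb, a ubiquitin ligase of activated receptors, was lower (-1.08 ± 0.15 and -0.46 ± 0.15, 4.21e-04 and 0.0275). Errfi1, a feedback inhibitor of EGFR, had 0.45 ± 0.34 in 2D (0.30) and was higher by 1.13 ± 0.34 in 3D (0.0207). Lrig1, which promotes receptor degradation, did not pass (0.35 ± 0.16, 0.0939, and -0.11 ± 0.16, 0.566).

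Of 28 adaptors and kinases downstream, 6 were higher, 8 lower and 14 not called in 2D, and 6, 6 and 16 in 3D, with medians of 0.03 and -0.06. Apart from Grb7, the docking proteins Gab1 (0.86 ± 0.15 and 1.2 ± 0.16, edgeR adjusted p = 1.67e-03 and 2.33e-04) and Gab2 (0.95 ± 0.16 and 1.68 ± 0.16, 1.01e-03 and 3.94e-05) were higher in D2.OR, and the phospholipase Plcg1 was lower (-1.02 ± 0.16 and -0.50 ± 0.16, 7.52e-04 and 0.0238). Of 18 genes known to respond to ERK signaling, 7 were higher, 1 lower and 10 not called in 2D, and 9, 2 and 7 in 3D, with medians of 0.59 and 0.62. The feedback phosphatase Dusp5 was higher in D2.OR by 3.36 ± 0.31 and 2.74 ± 0.31 (3.80e-05 and 1.06e-04), Spry2, a feedback inhibitor, by 1.11 ± 0.13 and 0.94 ± 0.13 (1.82e-04 and 3.95e-04), and Myc by 1.71 ± 0.27 and 2.45 ± 0.27 (7.30e-04 and 1.00e-04). The lower ones were Etv1 in both cultures (-1.36 ± 0.24 and -1.14 ± 0.23, adjusted p = 1.31e-03 and 3.02e-03) and Etv5 in 3D (-0.76 ± 0.20, 9.59e-03), transcription factor genes named here after their values were seen. The share of all tested genes called was 49.8% in 2D and 53.8% in 3D, so none of these counts says that a list stands apart.

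Some of these genes were also called between 3D and 2D, where 1.62% of all tested genes were called in D2.OR and 3.48% in D2A1. In D2.OR they were 1 of the 10 release genes, Rhbdl2 (-1.25 ± 0.15, edgeR adjusted p = 9.27e-03), 0 of the 13 restraining genes, 1 of the 28 adaptors and kinases, Src (-0.76 ± 0.12, 0.024), and 1 of the 18 ERK-responsive genes, the phosphatase Dusp4 (1.67 ± 0.29, 0.0317). In D2A1 they were 1, 2, 1 and 1 of the same lists: Adam8 (1.12 ± 0.25, edgeR adjusted p = 0.0489), Sh3kbp1 (0.94 ± 0.12, 0.015) and Cblb (-0.78 ± 0.15, 0.0396), Gab2 (-0.89 ± 0.16, 0.0354) and Spry1 (-2.38 ± 0.54, 0.0488). Src, Dusp4 and Spry1 were named after their values were seen. In the interaction none of them was called.

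Last, genes were sought whose log2 CPM followed most closely, over the 12 libraries, the receptor and the ligand with the highest mean CPM over all libraries, Erbb2 and Hbegf; Hbegf did not lead the ligands in every library. For Erbb2 they were Cdcp1 (Pearson r = 0.9979), Cd200 (0.9977) and Fzd8 (0.9976), and for Hbegf Foxl1 (0.9849), Wsb2 (0.9848) and Unc5c (0.98). The libraries fall into the 2 lines, so any gene with a large difference between the lines scores high on this measure, and the values describe the 12 libraries only.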

How the data were processed

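The authors trimmed reads with Trimmomatic 0.32, aligned them with STAR 2.5.3 and quantified genes with RSEM 1.3.0 on GRCm38 with FastQC 0.11.4 as quality control (submitters' processing notes), and deposited expected counts and TPM for each library and a TPM table of the series, which matched the library files (largest difference 0.0). Whether counting used strand is not given in the sources used here. Coordinates are from GENCODE annotation of GRCm38.

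Expected counts were rounded, filtered by filterByExpr (16823 of 52550 genes kept) and fitted with the edgeR 4.0.16 quasi-likelihood test (R 4.3.3) on all 12 libraries with TMM, group and batch; the biological coefficient of variation was 21.2%. The study's methods also model batch. Labels number the replicates by batch, on 1 lane each. Deviations from the group means correlated between groups at 0.076 to 0.51 (median 0.27) for the same number and at a median of -0.19 for different numbers. The study describes its replicates in general as biological repeats. Batch is a term of the model, so the p-values set a group difference against the spread that remains after group and batch. That spread is estimated over all 12 libraries of the 3 batches, which also differ in lane. Totals were 47589611 to 73325069 counts (median 61747126). Within-batch differences are of log2(CPM) with a prior count of 2.

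Alternatives were the DESeq2 1.42.0 likelihood-ratio test, log2 TPM with a pseudocount of 1 or 0.1 tested by limma 3.58.1 for genes with a TPM of at least 1 in 3 libraries, other scalings and filters, no batch term, only the groups compared, and leaving out libraries. The fit was also run on simulated counts with no batch or culture effect, and the outcome is neither given nor relied on here. Genes named were all 10 members, every other EGF-family ligand gene, and from each further list those with the smallest p between the lines (at most 3 in each culture) with Errfi1, Lrig1 and Adam17; list genes named beyond that rule are said to be. The members and lists were chosen with earlier results of these data known. No protein sequences were used here.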

Additional observations from a re-analysis of the deposited data

Results flagged for a closer look

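Of the genes in the lists around the ErbB members and the marker lists, leaving out genes with 3 or fewer counts in any library, 12 had a 3D-to-2D difference of one sign in all 3 batches of D2.OR and of the opposite sign in all 3 batches of D2A1. The test of the difference itself, the edgeR quasi-likelihood interaction, did not pass for any of them. On the log2 scale the interaction was 3.3596 for Parm1 (adjusted p = 0.0683), 2.9736 for Spry1 (0.124), 2.7894 for Timp3 (0.11), 0.8669 for Gata3 (0.472), 0.8181 for Stat5a (0.247) and 0.7354 for Myc (0.328), whose values were higher in 3D than in 2D in D2.OR and lower in D2A1. It was -2.421 for Cxcl3 (0.155), -1.635 for Adam8 (0.106), -1.516 for Krt8 (0.232), -0.7952 for Etv5 (0.20), -0.7574 for Etv4 (0.346) and -0.6871 for Vim (0.31), with the opposite signs. For Myc the D2.OR differences were 0.05, 0.05 and 0.00, hardly above 0. No ErbB receptor or ligand among the 10 showed this pattern. Groups of 3 libraries were not searched for outlying samples.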

How the results depend on the processing

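Over 45 values (9 tested members in 5 comparisons) and 1050 alternatives, 1005 kept their direction or stayed uncalled on the same side of the threshold, 22 calls were lost, 23 were gained and 0 called values changed direction. Without the replicate block the members called were 7 in 2D (Areg lost), 7 in 3D (Areg and Btc lost) and 0 in the other 3 comparisons. For 3D against 2D in D2.OR, fitting only the libraries compared called 1 member, Btc. For 3D against 2D in D2A1, DESeq2 called 3 (Areg, Nrg1 and Tgfa), and limma with either pseudocount and the fit with no filter on low counts called 1 each, Nrg1. Leaving out libraries gave 0 to 4 members called in D2A1, 0 to 2 in the interaction and 7 to 9 for each comparison of the lines. The share of all tested genes called under each alternative is not given here, so these counts do not set the members apart. Egfr, Erbb2, Erbb3, Ereg, Hbegf, Tgfa and Nrg1 kept their calls between the lines under every alternative run that gave them a value. Scaling by library totals put the median log2 fold change of all genes at -0.17 (2D) and -0.10 (3D), against 0.00 in both under TMM. The cause of these changes was not tested. The counts of Egfr, Erbb3 and Grb7 in D2A1 and of Ereg in D2.OR are too low to set the exact size of their differences, and Erbb4 and Nrg3 could not be tested. The interaction had no alternative limited to the libraries compared, since it uses all 12.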
